A study of Homo sapiens with 12 samples.

Results

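Prostanoids are made from arachidonic acid, and the genes examined here are the 10 that encode the main steps of that pathway in cultured keratinocytes: release of arachidonic acid (PLA2G4A), cyclooxygenation (PTGS1 and PTGS2), the terminal step to prostaglandin E2 (PTGES, PTGES2 and PTGES3), breakdown (HPGD and PTGR1) and sensing (PTGER2 and PTGER4). They were listed by gene symbol, and all 10 were matched to an Ensembl identifier among the 57370 in the count table. These genes and the wider list below were chosen with earlier results of these data known. The numbers of them called, set beside the shares over all genes, are therefore a description only. RNA-seq was performed on HaCaT cells, a spontaneously immortalized human keratinocyte line. The 12 libraries formed 4 groups of 3 biological replicates. HaCaT_sh cells carried a doxycycline-inducible lentiviral shRNA against IQGAP3, a scaffold protein linked to cell proliferation, and HaCaT_ctrl cells carried a scrambled shRNA in the same vector. Both lines were puromycin-selected stable clones, both were given doxycycline, and how many clones each line represents is not given in the sources used here. HaCaT_sh+cyto and HaCaT_ctrl+cyto cells were kept for 72 h with 3 cytokines: 20 ng/mL of interferon gamma, 25 ng/mL of tumour necrosis factor alpha and 100 ng/mL of interleukin 17, and HaCaT_sh and HaCaT_ctrl cells received no cytokines.

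Prostaglandin E2 is the prostanoid best known in skin, where it acts in inflammation, repair and keratinocyte growth. Its level in a tissue depends on the release of arachidonic acid from membranes, on the constitutive (PTGS1) and inducible (PTGS2) cyclooxygenases, on the E synthases and on uptake and oxidation, which starts with HPGD. RNA levels alone were measured here, and neither enzyme activity nor prostaglandin E2 was.

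Totals ranged between 13079055 and 17308021 counts per library, and log2 CPM of replicates correlated at 0.987 to 0.996 within groups. All 8 keratinocyte markers averaged at least 1 CPM in every group, and they summed to 6675 to 7226 CPM in HaCaT_sh+cyto, 4809 to 5122 CPM in HaCaT_ctrl+cyto, 9319.6 to 9978 CPM in HaCaT_sh and 8259.6 to 8569 CPM in HaCaT_ctrl. Of these KRT5, a basal keratin gene, averaged 151 CPM in HaCaT_sh+cyto, against 4438 CPM in HaCaT_sh, and 72.9 CPM in HaCaT_ctrl+cyto, against 3694 CPM in HaCaT_ctrl. KRT14, TP63 and ITGB4 also averaged lower with cytokines in both lines, while SFN, DSG3, KRT6A and KRT17 averaged higher. DSG3 averaged 1755 CPM in HaCaT_sh+cyto, against 495 CPM in HaCaT_sh, and 1392 CPM in HaCaT_ctrl+cyto, against 544 CPM in HaCaT_ctrl. Markers of leukocytes (6 genes) summed to at most 1.27 CPM and markers of melanocytes (5 genes) to at most 5.43 CPM in any library. The 7 fibroblast markers summed to 7.34 to 9.32 CPM in HaCaT_sh+cyto, 2.12 to 3.72 CPM in HaCaT_ctrl+cyto, 38.7 to 56.9 CPM in HaCaT_sh and 200 to 244 CPM in HaCaT_ctrl. Without cytokines DCN, which encodes the matrix proteoglycan decorin, supplied most of that sum (25.7 CPM in HaCaT_sh and 197 CPM in HaCaT_ctrl), and it had 0 counts in both cytokine groups. COL1A1 averaged 8.16, 2.70, 19.3 and 15.8 CPM in HaCaT_sh+cyto, HaCaT_ctrl+cyto, HaCaT_sh and HaCaT_ctrl, and supplied most of the sum with cytokines. LUM averaged 2.02 CPM in HaCaT_sh and 5.04 CPM in HaCaT_ctrl, while COL1A2 had at most 1 count in any group. The 3 endothelial markers found in the table summed to 0.49 to 1.26, 0.38 to 1.83, 16.1 to 30.6 and 17.5 to 19.02 CPM in the same 4 groups. CDH5 had the highest mean of the 3 in each group, though in HaCaT_sh+cyto it was close to VWF (0.31 and 0.28 CPM). These sums moved with the cytokine groups, and some also differed between the lines. The fibroblast sum was lower in HaCaT_sh than in HaCaT_ctrl and higher in HaCaT_sh+cyto than in HaCaT_ctrl+cyto, without overlap. The keratinocyte sum was higher in HaCaT_sh and in HaCaT_sh+cyto than in the matching control groups, also without overlap. The part of these sums in the results was not tested.

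IQGAP3, the gene targeted by the shRNA, had 115, 101 and 98.0 CPM in the libraries labelled HaCaT_sh, against 74.8, 70.2 and 77.0 CPM in HaCaT_ctrl. Its level was thus higher in every library labelled as silenced (log2 fold change 0.50, under 2-fold, adjusted p = 4.68e-06, edgeR), which goes against the label, and the HaCaT_sh groups are therefore named by their labels throughout. With cytokines it had 1.15, 1.64 and 0.91 CPM in libraries labelled HaCaT_sh+cyto, against 1.89, 3.96 and 4.06 CPM in HaCaT_ctrl+cyto (log2 fold change -1.44, adjusted p = 0.0158, edgeR), which did not pass the threshold of 0.01.

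The promoters of 3 genes are printed. PTGS2 was the only gene of the 10 that rose at least 2-fold with cytokines in both lines. HPGD had the largest fall among the 10, and PTGER4 is a receptor gene that was higher in libraries labelled HaCaT_sh. Each run is the 250 bases before the RefSeq start site (RefSeq table of GRCh38.p14, placed on GRCh37 by an exact match), and capitals mark the motif matches described next. PTGS2 lies at chr1:186649556-186649805 on the minus strand, HPGD at chr4:175443640-175443889 on the minus strand and PTGER4 at chr5:40679767-40680016 on the plus strand.
PTGS2: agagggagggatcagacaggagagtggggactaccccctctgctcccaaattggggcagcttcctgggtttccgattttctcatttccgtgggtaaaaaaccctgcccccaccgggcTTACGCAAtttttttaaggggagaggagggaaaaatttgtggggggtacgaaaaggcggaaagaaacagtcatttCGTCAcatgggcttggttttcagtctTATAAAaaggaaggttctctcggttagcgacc
HPGD: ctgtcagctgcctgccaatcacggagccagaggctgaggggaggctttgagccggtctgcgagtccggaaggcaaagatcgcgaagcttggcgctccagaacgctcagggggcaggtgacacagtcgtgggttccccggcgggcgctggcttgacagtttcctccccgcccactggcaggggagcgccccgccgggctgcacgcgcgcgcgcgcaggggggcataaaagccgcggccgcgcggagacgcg
PTGER4: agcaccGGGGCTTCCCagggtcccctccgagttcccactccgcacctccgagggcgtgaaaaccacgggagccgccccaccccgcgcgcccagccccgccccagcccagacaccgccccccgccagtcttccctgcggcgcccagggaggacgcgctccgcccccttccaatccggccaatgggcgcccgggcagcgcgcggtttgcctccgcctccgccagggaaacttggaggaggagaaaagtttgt

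Both strands of these windows were searched for 8 motifs, and the same search over 35116 promoters gave the background share of each. The PTGS2 window held a TATA box (TATAAA) 32 to 27 bases before the start, which 10.7% of promoters hold somewhere in the window. It also held a CRE half-site (CGTCA) 58 to 54 bases before the start, present in 21.2% of promoters, and a C/EBP-type match (TTNNGNAA) 133 to 126 bases before it, present in 33.2%. The PTGER4 window held an NF-kB-type match 244 to 235 bases before the start, a motif present in 5.21% of promoters. The HPGD window held none of the 8. For each of the 10 genes only the RefSeq start nearest its canonical start was then counted. Of these, 2 held the TATA box letters (PTGS2 and PTGS1), 3 the CRE half-site, 1 the C/EBP motif and 1 the NF-kB motif. The PTGS1 match was on the other strand (TTTATA), 208 to 203 bases before a start that lies 491 bases from the canonical one. At another of their starts HPGD held a CRE half-site, and PTGS1 and PTGES2 each held a C/EBP-type match. No start of any of them held the GAS element (TTCNNNGAA, 6.57% of promoters), the ISRE (3.02%), the full CRE (TGACGTCA, 1.65%) or the AP-1 motif (TGANTCA, 6.57%). The CRE half-site lies within the full CRE, and the CRE half-site and C/EBP motifs were added after the sequences had been seen. Only exact matches to the letters of each motif (GGGRNWYYCC for NF-kB) were counted, so near matches were missed. The stretch gggactaccc in the PTGS2 window departs from the NF-kB letters at 1 base and was not counted. The absence of a match is therefore not the absence of a site, and a match describes letters only.

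The cytokine comparisons ask how the pathway responds to an inflammatory cytokine mix in each line. In both lines the inducible cyclooxygenase gene PTGS2 rose more than 10-fold with all libraries in the fit, while HPGD, PTGS1 and PLA2G4A fell. In HaCaT_ctrl+cyto against HaCaT_ctrl, 1 of the 9 genes tested was called higher, against 14.7% of the 13687 genes tested, and 3 were called lower, against 21.1% of them. In libraries labelled HaCaT_sh+cyto against HaCaT_sh, 1 of 9 was called higher, against 14.9% of 13480 genes, and 4 were called lower, against 21% of them. A call of higher or lower required 2-fold or more together with an adjusted p under 0.01 (edgeR's quasi-likelihood test, Benjamini-Hochberg over all genes tested). PTGER2 was too low to be tested. The median log2 fold change of the genes tested was -0.59 in HaCaT_sh and -0.55 in HaCaT_ctrl, beside medians of -0.023 and -0.026 over all genes. In bulk RNA, fewer cells of one kind cannot be told apart from less RNA per cell.

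**Figure D1:**
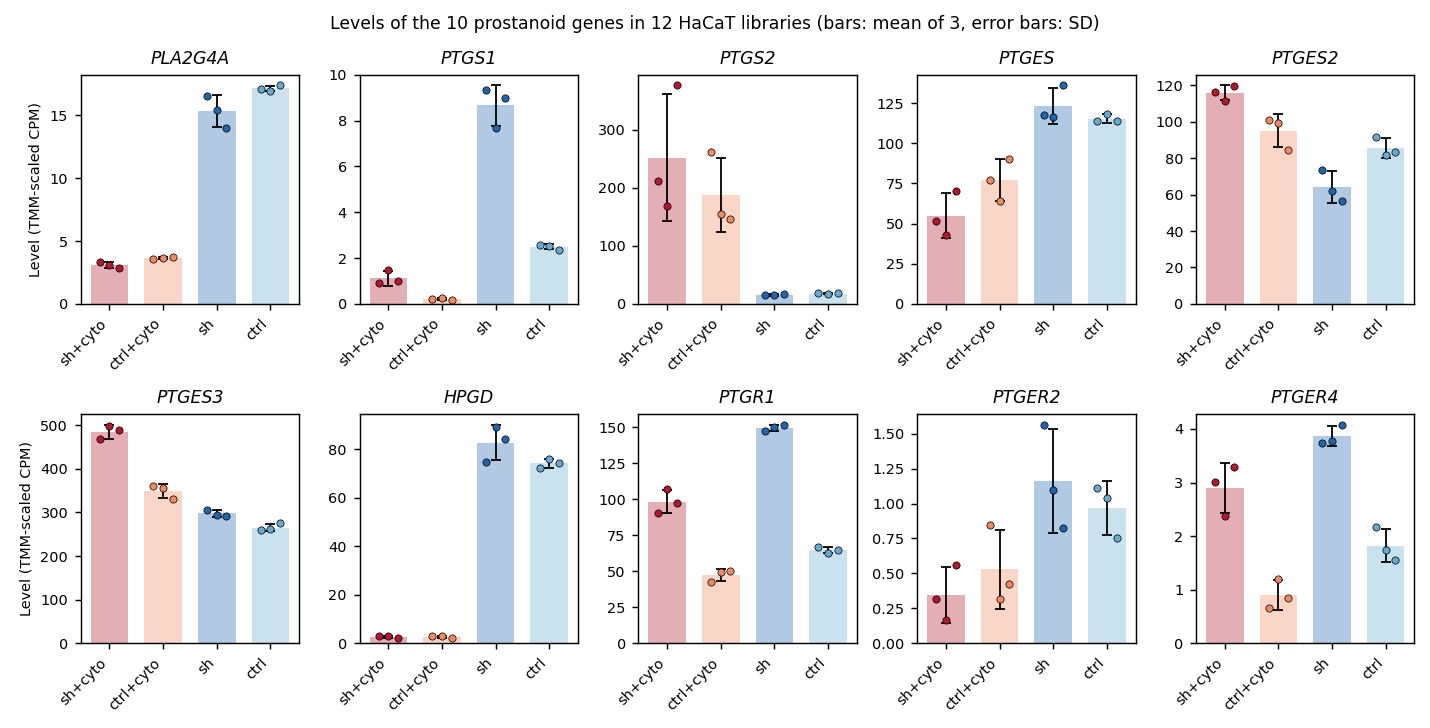
Level of each of the 10 prostanoid genes in TMM-scaled CPM (vertical axes start at 0) in the 4 groups, with points for the 3 libraries, bars for their mean and error bars for the SD. PTGS2 averaged 252 and 188 CPM in the HaCaT_sh+cyto and HaCaT_ctrl+cyto groups and 15.7 and 17.9 CPM in HaCaT_sh and HaCaT_ctrl, while HPGD averaged 2.61, 2.67, 82.7 and 74.1 CPM in the same order.

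PLA2G4A encodes cytosolic phospholipase A2 alpha, which frees arachidonic acid from membrane phospholipids. It had 3.32, 3.12 and 2.87 CPM in libraries labelled HaCaT_sh+cyto, against 16.5, 15.4 and 14.0 CPM in HaCaT_sh. In HaCaT_ctrl+cyto it had 3.59, 3.65 and 3.70 CPM, against 17.1, 17.0 and 17.4 CPM in HaCaT_ctrl. Every cytokine library lay below every library without cytokines. The fall was 4.89-fold in the line labelled HaCaT_sh (log2 fold change -2.29, SE 0.13, adjusted p = 6.93e-08, edgeR) and 4.60-fold in HaCaT_ctrl (-2.20, SE 0.11, adjusted p = 5.34e-08, edgeR).

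PTGS1, the cyclooxygenase usually described as constitutive, had 0.89, 1.48 and 0.98 CPM in libraries labelled HaCaT_sh+cyto, against 9.33, 7.67 and 8.98 CPM in HaCaT_sh. In HaCaT_ctrl+cyto it had 0.20, 0.25 and 0.18 CPM, against 2.56, 2.55 and 2.37 CPM in HaCaT_ctrl. No cytokine library reached the level of a library of the same line without cytokines. The log2 fold changes were -2.97 (SE 0.21, adjusted p = 2.47e-07, edgeR) in the line labelled HaCaT_sh and -3.49 (SE 0.28, adjusted p = 1.16e-06, edgeR) in HaCaT_ctrl. The HaCaT_ctrl+cyto level rests on 3, 4 and 3 counts.

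PTGS2, the inducible cyclooxygenase, had 211, 168 and 376 CPM in libraries labelled HaCaT_sh+cyto, against 14.9, 14.6 and 17.7 CPM in HaCaT_sh. In HaCaT_ctrl+cyto it had 262, 156 and 147 CPM, against 18.7, 16.4 and 18.8 CPM in HaCaT_ctrl. The cytokine libraries were all higher, and within each cytokine group 1 library stood above the other two. The rise was 16.1-fold in the line labelled HaCaT_sh (log2 fold change 4.01, SE 0.27, adjusted p = 2.08e-07, edgeR) and 10.7-fold in HaCaT_ctrl (3.42, SE 0.22, adjusted p = 2.29e-07, edgeR). Leaving out single libraries gave log2 fold changes of 3.61 to 4.23 in the line labelled HaCaT_sh and 3.10 to 3.57 in HaCaT_ctrl. The antisense gene PACERR, which overlaps PTGS2, had 10, 9, 19 and 39 counts in HaCaT_sh+cyto, HaCaT_ctrl+cyto, HaCaT_sh and HaCaT_ctrl, beside 10731, 8911, 804 and 917 counts of PTGS2.

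The 3 E synthase genes did not move together. PTGES, the microsomal and inducible enzyme that is often paired with PTGS2, had 51.4, 43.1 and 70.6 CPM in libraries labelled HaCaT_sh+cyto, against 118, 116 and 136 CPM in HaCaT_sh, and so fell 2.22-fold (log2 fold change -1.15, SE 0.14, adjusted p = 2.42e-05, edgeR). In HaCaT_ctrl+cyto it had 77.2, 64.3 and 90.1 CPM, against 114, 118 and 114 CPM in HaCaT_ctrl. Those groups did not overlap either, but the log2 fold change of -0.55 (SE 0.11, adjusted p = 7.44e-04, edgeR) was under 2-fold. PTGES2, a membrane-associated E synthase, averaged 116 ± 4.08 CPM in HaCaT_sh+cyto and 64.1 ± 8.84 CPM in HaCaT_sh (SD, n = 3 each; log2 fold change 0.86), and 95.01 ± 9.10 CPM in HaCaT_ctrl+cyto and 85.5 ± 5.49 CPM in HaCaT_ctrl (log2 fold change 0.18). The HaCaT_ctrl+cyto and HaCaT_ctrl libraries overlapped for this gene. PTGES3, a cytosolic E synthase better known as the HSP90 co-chaperone p23, averaged 485 ± 16.0 CPM in HaCaT_sh+cyto and 298 ± 7.43 CPM in HaCaT_sh (log2 fold change 0.71), and 349 ± 16.7 CPM in HaCaT_ctrl+cyto and 266 ± 8.05 CPM in HaCaT_ctrl (log2 fold change 0.42). These PTGES2 and PTGES3 differences were under 2-fold and were not called.

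HPGD encodes 15-hydroxyprostaglandin dehydrogenase, the enzyme that starts the inactivation of prostaglandin E2. It had 2.81, 2.79 and 2.24 CPM in libraries labelled HaCaT_sh+cyto, against 74.8, 89.3 and 84.1 CPM in HaCaT_sh. In HaCaT_ctrl+cyto it had 2.87, 2.89 and 2.24 CPM, against 72.1, 75.8 and 74.4 CPM in HaCaT_ctrl. The lowest library without cytokines was far above the highest with them. The fall was 31.4-fold in the line labelled HaCaT_sh (log2 fold change -4.97, SE 0.12, adjusted p = 1.71e-10, edgeR) and 27.2-fold in HaCaT_ctrl (-4.77, SE 0.11, adjusted p = 3.33e-10, edgeR). An overlapping gene on the other strand, ENSG00000251584, had 0 and 0 counts in the cytokine groups and 89 and 15 counts in HaCaT_sh and HaCaT_ctrl, beside 4227 and 3793 counts of HPGD in those last groups. PTGR1, which reduces the keto products of HPGD and also inactivates leukotriene B4, had 90.6, 107 and 97.5 CPM in HaCaT_sh+cyto, against 147, 150 and 151 CPM in HaCaT_sh (log2 fold change -0.59), and 42.3, 49.4 and 50.4 CPM in HaCaT_ctrl+cyto, against 66.6, 62.9 and 64.5 CPM in HaCaT_ctrl (log2 fold change -0.42). Neither PTGR1 difference reached 2-fold.

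PTGER2 and PTGER4 encode the EP2 and EP4 receptors, which signal prostaglandin E2 through cyclic AMP. PTGER4 had 3.00, 2.38 and 3.29 CPM in HaCaT_sh+cyto, against 3.74, 3.78 and 4.08 CPM in HaCaT_sh (log2 fold change -0.40, SE 0.17, adjusted p = 0.0546, edgeR). It had 0.65, 1.19 and 0.85 CPM in HaCaT_ctrl+cyto, against 2.16, 1.74 and 1.56 CPM in HaCaT_ctrl (log2 fold change -0.97, SE 0.27, adjusted p = 0.00748, edgeR), just under 2-fold. That value passed the fold threshold when libraries were scaled by their totals alone (-1.18) or HaCaT_ctrl+cyto replicate 2 was left out (-1.23). PTGER2 was the lowest of the 10 per length in every group except HaCaT_ctrl+cyto, where PTGS1 was lower, with 15, 25, 60 and 49 counts summed over HaCaT_sh+cyto, HaCaT_ctrl+cyto, HaCaT_sh and HaCaT_ctrl. Its libraries overlapped between HaCaT_ctrl+cyto (0.31 to 0.85 CPM) and HaCaT_ctrl (0.75 to 1.11 CPM), and did not overlap between HaCaT_sh+cyto (0.16 to 0.56 CPM) and HaCaT_sh (0.83 to 1.56 CPM).

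**Figure D2:**
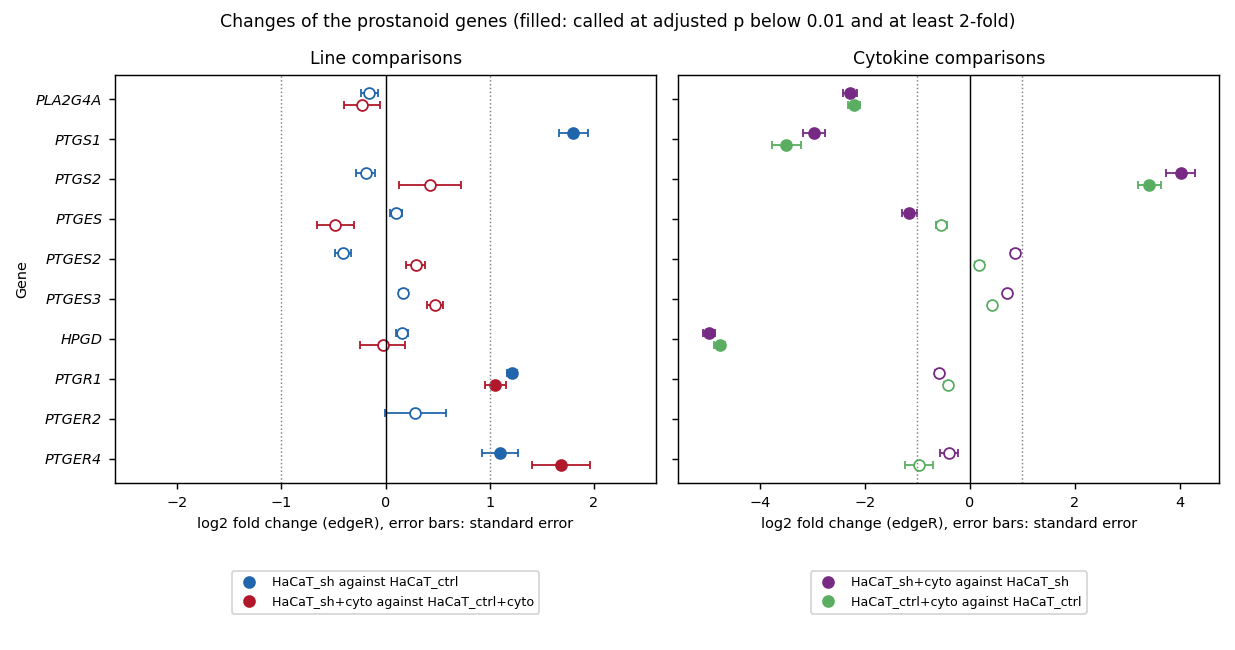
Log2 fold change of each gene (horizontal axis, error bars are standard errors) between the lines at left and with cytokines at right, with filled points for genes called higher or lower and dotted lines at 2-fold. PTGS1, PTGR1 and PTGER4 were called higher in HaCaT_sh, and in the cytokine comparisons PTGS2 stood at 4.01 and 3.42 and HPGD at -4.97 and -4.77 in HaCaT_sh and HaCaT_ctrl.

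PTGS2 and HPGD moved in opposite directions with cytokines, while PLA2G4A, PTGS1 and PTGES moved down as HPGD did. Pairs of these genes were summarised by ratios of levels per kilobase of canonical transcript, which were chosen after the levels had been seen. PTGS2 over HPGD was 43.7, 34.996 and 97.4 in HaCaT_sh+cyto, against 0.12, 0.095 and 0.12 in HaCaT_sh. It was 52.9, 31.3 and 38.0 in HaCaT_ctrl+cyto, against 0.15, 0.13 and 0.15 in HaCaT_ctrl. The ratio was therefore 482-fold higher with cytokines in the line labelled HaCaT_sh and 283-fold higher in HaCaT_ctrl, with no overlap (two-sided exact permutation p = 0.1 each, the smallest that 3 against 3 allows). Both genes had already separated these groups in opposite directions, so this outcome was fixed in advance and adds no evidence. HaCaT_sh+cyto and HaCaT_ctrl+cyto overlapped in this ratio (exact permutation p = 0.6). PTGS2 over PTGS1 had geometric means of 242 in HaCaT_sh+cyto and 973 in HaCaT_ctrl+cyto, and of 2.02 in HaCaT_sh and 8.01 in HaCaT_ctrl. Within each of those pairs the libraries did not overlap, and the HaCaT_ctrl+cyto value rests on 10 PTGS1 counts. PTGES over HPGD was 13.9-fold higher in HaCaT_sh+cyto than in HaCaT_sh and 18.6-fold higher in HaCaT_ctrl+cyto than in HaCaT_ctrl, so the fall of HPGD exceeded the lower PTGES level in both lines.

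**Figure D3:**
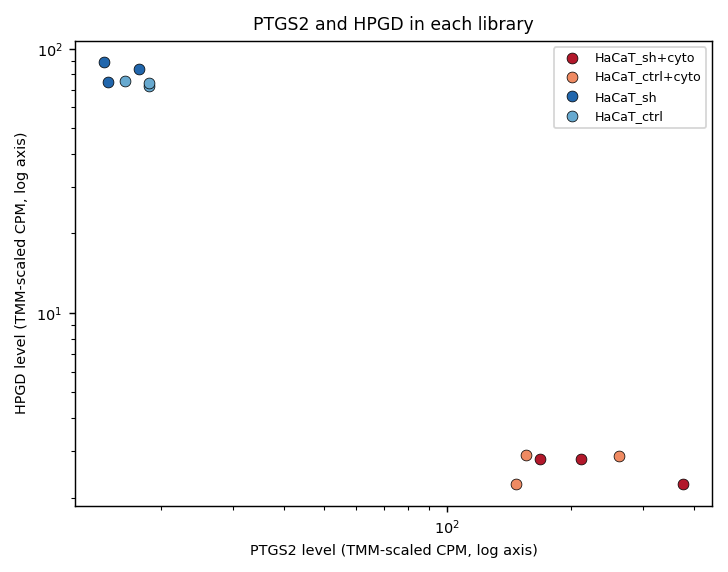
PTGS2 (horizontal) against HPGD (vertical) in TMM-scaled CPM on log axes, 1 point per library, coloured by group. The 6 cytokine libraries lie at 147 to 376 CPM of PTGS2 and 2.24 to 2.89 CPM of HPGD, and the 6 others at 14.6 to 18.8 CPM of PTGS2 and 72.1 to 89.3 CPM of HPGD.

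Levels per kilobase allow the 10 genes to be ordered within a group. PTGES3 was highest in each group, at 256 CPM per kb in HaCaT_sh+cyto, 184 in HaCaT_ctrl+cyto, 157 in HaCaT_sh and 140 in HaCaT_ctrl. PTGS2 stood at 55.9 and 41.7 CPM per kb in HaCaT_sh+cyto and HaCaT_ctrl+cyto, among the E synthases and PTGR1, and at 3.48 and 3.98 in HaCaT_sh and HaCaT_ctrl, below all of them. HPGD stood at 0.998 and 1.02 CPM per kb with cytokines and at 31.6 and 28.3 without. PTGS1 and both receptor genes stayed under 2 CPM per kb in every group.

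Without cytokines, the lines were compared as labelled. Among the 10 genes, PTGS1, PTGR1 and PTGER4 were higher in the libraries labelled HaCaT_sh, 3 of 10 against 3.8% of 13719 genes tested. None was called lower (5.07% of all genes), with 1 gene, PTGES2, lower at an unadjusted p under 0.05 in edgeR and 0 called by DESeq2 or limma-voom. PTGES2 also passed the adjusted threshold (log2 fold change -0.41, SE 0.078, adjusted p = 3.25e-04, edgeR) without overlap of the groups, and missed the call on fold alone. The median log2 fold change was 0.16, beside -0.0021 over all genes. PTGS1 was higher by 3.49-fold (log2 fold change 1.80, SE 0.14, adjusted p = 4.28e-08, edgeR), with 7.67 to 9.33 CPM in HaCaT_sh and 2.37 to 2.56 CPM in HaCaT_ctrl. PTGR1 was higher by 2.32-fold (1.21, SE 0.046, adjusted p = 3.69e-11, edgeR), with 147 to 151 CPM in HaCaT_sh and 62.9 to 66.6 CPM in HaCaT_ctrl. PTGER4 was higher by 2.14-fold (1.10, SE 0.18, adjusted p = 6.75e-05, edgeR), with 3.74 to 4.08 CPM in HaCaT_sh and 1.56 to 2.16 CPM in HaCaT_ctrl. Without HaCaT_ctrl replicate 3 the PTGER4 value was 0.996 on the log2 scale and fell just short of 2-fold. PTGS2 (-0.19, adjusted p = 0.0873), PTGES (0.10, adjusted p = 0.145) and HPGD (0.16, adjusted p = 0.0300) were not called by edgeR. PLA2G4A averaged 15.3 CPM in HaCaT_sh and 17.1 CPM in HaCaT_ctrl, and PTGES3 averaged 298 and 266 CPM, and neither was called.

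With cytokines, 2 of the 8 genes tested were higher in libraries labelled HaCaT_sh+cyto than in HaCaT_ctrl+cyto, against 2.5% of 12693 genes. None was called lower (1.63% of all genes), with 1 gene, PTGES, lower at an unadjusted p under 0.05 in edgeR and 0 called by DESeq2 or limma-voom. The median log2 fold change was 0.36, beside -0.0049 over all genes. PTGR1 had 90.6, 107 and 97.5 CPM in HaCaT_sh+cyto, against 42.3, 49.4 and 50.4 CPM in HaCaT_ctrl+cyto (log2 fold change 1.06, SE 0.10, adjusted p = 1.54e-04, edgeR). PTGER4 had 3.00, 2.38 and 3.29 CPM, against 0.65, 1.19 and 0.85 CPM (log2 fold change 1.68, SE 0.28, adjusted p = 0.00289, edgeR). The groups did not overlap for either gene, yet both calls lie close to the threshold. PTGR1 fell under 2-fold with scaling by totals alone (0.98), without HaCaT_sh+cyto replicate 2 (0.99) or without HaCaT_ctrl+cyto replicate 1 (0.98). PTGER4 kept log2 fold changes of 1.58 to 1.66 without HaCaT_sh+cyto replicates 1 or 3 or HaCaT_ctrl+cyto replicate 3, with adjusted p of 0.0101 to 0.0142 (edgeR). TTC33, which overlaps PTGER4 on the other strand, averaged 4.64 CPM in HaCaT_sh+cyto and 3.52 CPM in HaCaT_ctrl+cyto, and 14.8 CPM in HaCaT_sh and 11.2 CPM in HaCaT_ctrl. The strand setting of the counting is not given in the sources used here, so reads of such pairs cannot be told apart.

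PTGS1 was too low for the fit in the cytokine-treated lines, with 14, 18 and 14 counts in HaCaT_sh+cyto, against 3, 4 and 3 counts in HaCaT_ctrl+cyto. Means were 1.12 ± 0.31 and 0.21 ± 0.037 CPM (SD, n = 3 each), with no overlap (two-sided exact permutation p = 0.1, the smallest possible). PTGS2 averaged 252 ± 110 CPM in HaCaT_sh+cyto and 188 ± 63.8 CPM in HaCaT_ctrl+cyto, and these libraries overlapped (log2 fold change 0.43, SE 0.30, adjusted p = 0.309, edgeR). Left-out libraries moved that value between 0.016, without HaCaT_sh+cyto replicate 3, and 0.73, without HaCaT_ctrl+cyto replicate 1. HPGD differed by -0.027 on the log2 scale (SE 0.21, adjusted p = 0.937, edgeR), with libraries that overlapped.

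The interaction term of a fit over the 12 libraries tested whether the lines differed in their cytokine response. No gene of the 9 tested was called in either direction by edgeR, against 1.4% of 13296 genes called higher and 1.23% called lower, and DESeq2 and limma-voom also called 0. At an unadjusted p under 0.05 edgeR gave 2 genes with a more positive response in the line labelled HaCaT_sh (PTGES2 and PTGES3) and 1 with a more negative response (PTGES). PTGES2 differed by 0.70 on the log2 scale (SE 0.13, adjusted p = 0.00229, edgeR), which passes the p threshold but is under 2-fold. Its libraries were lowest in HaCaT_sh (73.8, 62.0 and 56.4 CPM) and highest in HaCaT_sh+cyto (116, 112 and 120 CPM), with 101, 99.4 and 84.5 CPM in HaCaT_ctrl+cyto and 91.8, 81.6 and 83.2 CPM in HaCaT_ctrl. PTGES differed by -0.58 (SE 0.20, adjusted p = 0.0575, edgeR), so its call in 1 line alone is not shown to be a difference between the lines. PTGS2 differed by 0.62 (SE 0.38, adjusted p = 0.288) and HPGD by -0.18 (SE 0.18, adjusted p = 0.544) in the same edgeR fit. The 4 pairwise comparisons share libraries, each group entering 2 of them.

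A wider list of 59 eicosanoid genes places these values in the pathway. With cytokines, 9 of 36 tested genes were called higher and 14 lower in the line labelled HaCaT_sh, against 14.9% higher and 21% lower of all genes. In HaCaT_ctrl 8 of 36 were called higher and 14 lower, against 14.7% and 21.1% of all genes. Among arachidonate release genes 5 were higher and 6 lower of 16 tested in each line, beside the same shares of all genes. MGLL, the lipase that frees arachidonate from the endocannabinoid 2-arachidonoylglycerol, had 44.4, 46.6 and 37.01 CPM in HaCaT_sh+cyto, against 1.17, 0.85 and 1.18 CPM in HaCaT_sh (log2 fold change 5.31). It had 36.6, 41.0 and 40.2 CPM in HaCaT_ctrl+cyto, against 0.33, 0.29 and 0.27 CPM in HaCaT_ctrl (7.06). The epidermal secreted phospholipase gene PLA2G2F had 217, 171 and 234 CPM in HaCaT_sh+cyto, against 4.08, 2.74 and 2.78 CPM in HaCaT_sh (6.02), and 83.7, 63.2 and 54.1 CPM in HaCaT_ctrl+cyto, against 0.66, 1.16 and 0.91 CPM in HaCaT_ctrl (6.21). PLA2G4C (4.43 and 3.09 on the log2 scale in HaCaT_sh and HaCaT_ctrl), PLA2G4E (3.13 and 2.94) and ANXA1, the annexin known to restrain phospholipase A2 (1.66 and 1.05), rose as well. PLA2G2A, another secreted phospholipase, fell to 1.66, 1.64 and 2.66 CPM in HaCaT_sh+cyto, against 180, 207 and 183 CPM in HaCaT_sh (-6.56), and to 0, 0.31 and 0.24 CPM in HaCaT_ctrl+cyto, against 109, 111 and 97.0 CPM in HaCaT_ctrl (-9.04). PLAAT3, PLA2G6, DAGLA and PLA2G4F also fell in both lines.

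**Figure D4:**
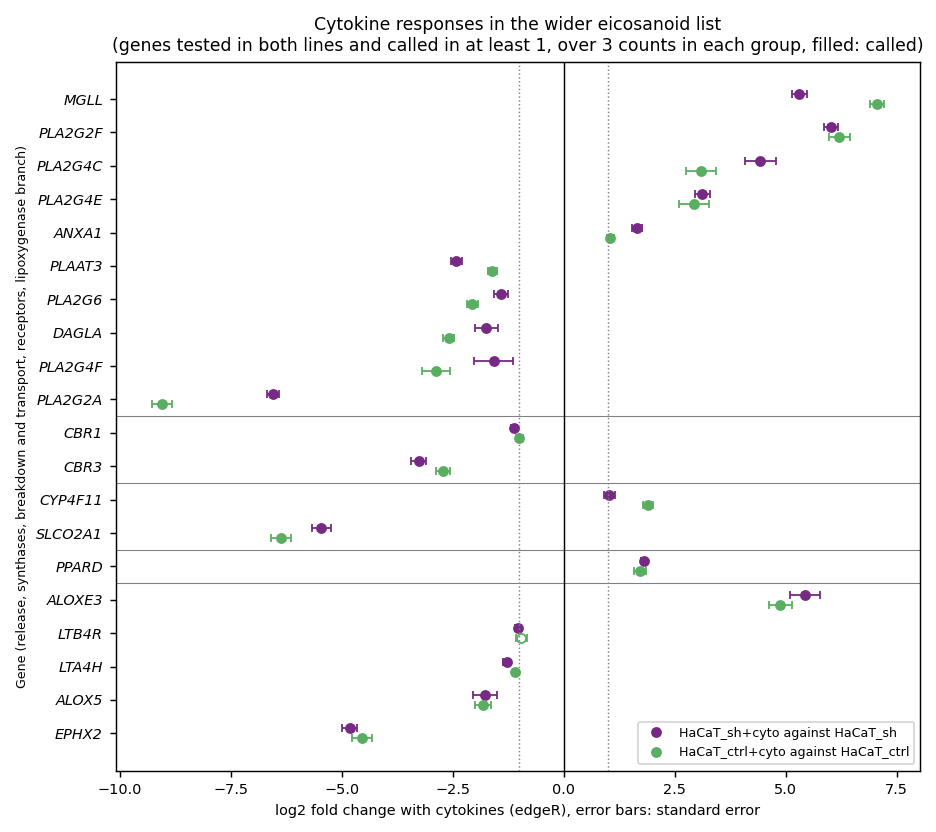
Log2 fold change with cytokines (horizontal axis, error bars are standard errors) of the 20 wider-list genes tested in both lines, called in at least 1 and with over 3 counts in each group, arranged by role, filled where called. MGLL, PLA2G2F, ALOXE3, PLA2G4C and PLA2G4E lie farthest right, and PLA2G2A and SLCO2A1 farthest left.

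Beyond release, SLCO2A1, the transporter that takes prostaglandins into cells for oxidation by HPGD, fell with HPGD. It had 0.58, 0.49 and 0.70 CPM in HaCaT_sh+cyto, against 22.6, 26.1 and 31.1 CPM in HaCaT_sh (log2 fold change -5.46), and 0.52, 0.19 and 0.18 CPM in HaCaT_ctrl+cyto, against 24.6, 26.9 and 24.4 CPM in HaCaT_ctrl (-6.36). Uptake and oxidation genes were thus both low in every cytokine library. CYP4F11, a fatty acid hydroxylase, rose (1.02 and 1.90 in HaCaT_sh and HaCaT_ctrl), as did the lipid-sensing nuclear receptor gene PPARD (1.81 and 1.73). Of the other synthase genes the carbonyl reductases CBR3 (-3.27 and -2.72) and CBR1 (-1.12 and -1.003) fell in both lines, and the prostacyclin synthase gene PTGIS fell in HaCaT_ctrl (-3.79). PTGIS had 1 count in HaCaT_sh+cyto and 29 counts in HaCaT_sh. In the lipoxygenase branch ALOXE3, an epidermal barrier lipoxygenase, rose (5.43 and 4.88), while ALOX5 (-1.78 and -1.82), LTA4H (-1.28 and -1.09) and the epoxide hydrolase gene EPHX2 (-4.82 and -4.54) fell. LTB4R was called lower in the line labelled HaCaT_sh (-1.03), a call that ended without HaCaT_sh+cyto replicate 2 (-0.99). It also averaged lower in HaCaT_ctrl+cyto (20.7 CPM) than in HaCaT_ctrl (40.9 CPM), without a call. CYSLTR1, a leukotriene receptor gene, was at least 20.5-fold lower in HaCaT_ctrl+cyto (0 counts, taken as 3 over the group) than in HaCaT_ctrl (66 counts), and had 1 count in HaCaT_sh+cyto against 97 in HaCaT_sh (79.8-fold, 95% counting interval 14.0 to 3182). By the same reckoning PLA2G10 was 85.9-fold lower in HaCaT_ctrl+cyto (15.04 to 3430), PLA2G5 was 23.6-fold lower in HaCaT_sh+cyto (7.80 to 117) and ALOX5AP was 45.4-fold higher in HaCaT_sh+cyto (15.1 to 224). These intervals and floors cover counting error only. Counts in the other line moved the same way without a call. PLA2G10 had 1 count in HaCaT_sh+cyto and 5 in HaCaT_sh. In HaCaT_ctrl+cyto and HaCaT_ctrl, PLA2G5 had 3 and 43 counts and ALOX5AP had 43 and 18 counts.

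Between the lines without cytokines, 3 of 35 tested genes of the wider list were higher in libraries labelled HaCaT_sh (PLA2G2F 1.80, PLA2G4E 1.04 and CYP4F11 1.02 on the log2 scale), against 3.8% of all genes, and 4 were lower, against 5.07% (PLA2G10 -4.10, PTGIS -1.92, AKR1C3 -1.41 and DAGLA -1.39). With cytokines, 3 of 32 were higher in HaCaT_sh+cyto (PLA2G2A 3.35, PLA2G2F 1.63 and PLA2G4E 1.25), against 2.5% of all genes, and 2 were lower, against 1.63% (AKR1C3 -1.84 and PLAAT3 -1.21). AKR1C3, which makes prostaglandin F2, has near-identical paralogs that can share its reads, and its values are uncertain. The cytokine response differed by the interaction test for PLA2G2A (2.50, SE 0.48, adjusted p = 0.00257, edgeR) and MGLL (-1.73, SE 0.34, adjusted p = 0.00306, edgeR). The MGLL call rests on 15 counts over HaCaT_ctrl and ended with limma-voom (adjusted p = 0.0124) and without HaCaT_sh replicate 1 or 3 or HaCaT_ctrl replicate 2 or 3 (adjusted p of 0.0102 to 0.0137, edgeR). Several calls near 2-fold ended under some alternatives, among them CYP4F11 between the lines without cytokines and CBR1 and ANXA1 with cytokines in HaCaT_ctrl. The CYP4F11 call with cytokines in the line labelled HaCaT_sh ended with library size alone (0.81). It also ended without HaCaT_sh replicate 2 (0.94) or HaCaT_sh+cyto replicate 3 (0.93). CBR1 fell under 2-fold with DESeq2 and with RLE factors (-0.99 each), among others. The PLA2G4E call between the lines without cytokines ended with DESeq2 (adjusted p = 0.0164), library size alone (0.98) and the fit of all 12 libraries (adjusted p = 0.0289, edgeR). It also ended without HaCaT_sh replicate 1 or 2 or HaCaT_ctrl replicate 2 or 3 (adjusted p of 0.0111 to 0.0276, edgeR). The PLA2G4E call between the cytokine-treated lines ended on p without 5 of the 6 libraries in turn (log2 fold changes 1.08 to 1.27, adjusted p of 0.0119 to 0.0233, edgeR), and the AKR1C3 call there ended without HaCaT_sh+cyto replicate 2 or HaCaT_ctrl+cyto replicate 2 or 3 (adjusted p of 0.0174 to 0.0307, edgeR). The PLA2G4F call in the line labelled HaCaT_sh (-1.58) ended with DESeq2 and without 5 of the 6 libraries in turn, and the PLA2G2A call between the cytokine-treated lines ended without HaCaT_ctrl+cyto replicate 2 or 3 (adjusted p = 0.0104 each, edgeR).

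The genes whose log2 CPM followed a member most closely over the 12 libraries, among 10731 compared, are given as a description, since all points share the same split by cytokines. For PTGS2 they were MACC1 (Pearson r 0.997), SMG1 (0.997) and MYO1E (0.997). For HPGD they were GRHL2 (0.999), HIBCH (0.998) and OSTF1 (0.998). For PTGES they were LPAR1 (0.973), PACS1 (0.972) and NOD1 (0.966).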

How the data were processed

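The authors deposited a table of counts per Ensembl gene for 12 RNA-seq libraries (stranded library kit, paired reads). Per the study's methods reads were trimmed with Cutadapt and aligned with STAR to hg19 with Gencode annotation. Not given in the sources used here were the counting program, its strand setting and the versions of these tools. A deposited table of scaled values was not used. Every value column of the counts was matched to a sample by its name. Counts were tested as deposited with edgeR 4.0.16 (R 4.3.3) by the quasi-likelihood test with TMM scaling, over genes that reached 1 CPM in 50% or more of the libraries compared, with Benjamini-Hochberg adjustment over all genes tested. Calls needed an adjusted p below 0.01 and a change of at least 2-fold. CPM printed are TMM-scaled over all 12 libraries, and levels per kilobase use the Gencode canonical transcript. Scripts were tested on simulated data. Alternatives were DESeq2 1.42.0, limma-voom (limma 3.58.1), RLE factors, library size alone, 2 other filters, 1 fit of all 12 libraries, a replicate block and leaving out each library. Replicates are labelled biological, and p-values measure the spread between them. Each shRNA is represented by 1 line, so the p-values do not measure spread between separately made lines. A difference between the lines cannot be told apart from a difference between their clones. The members and lists were chosen with earlier results of these data known. Named genes were the 10 members, genes of the wider list called in any comparison, the 3 genes nearest in pattern to PTGS2, PTGES and HPGD among those with a mean of at least 5 CPM, and IQGAP3. CYP4F3 falls outside that rule. Pairs of replicates differed by more than sampling noise (chi-square per degree of freedom 1.62 to 29.8), so all 12 were kept as separate samples.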

Additional observations from a re-analysis of the deposited data

Results flagged for a closer look

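The results here are genes whose cytokine response differed between the lines in edgeR's interaction test at an adjusted p below 0.01. Each value is the log2 cytokine response of the line labelled HaCaT_sh minus that of HaCaT_ctrl. PTGES2 differed by 0.70, with cytokine responses of 0.86 in the line labelled HaCaT_sh and 0.18 in HaCaT_ctrl. PLA2G2A differed by 2.50 and rests on 0, 5 and 4 counts in HaCaT_ctrl+cyto. MGLL differed by -1.73 and rests on 15 counts over HaCaT_ctrl. IQGAP3 differed by -1.95. The other differences were under 2-fold, at -0.79 for PLAAT3, 0.62 for ANXA1, 0.68 for CYP4F3 and -0.86 for CYP4F11, and CYP4F genes can share reads with one another. Their causes were not tested.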

How the results depend on the processing

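For the 10 prostanoid genes, 346 of the values under alternatives other than leaving out a library kept their direction and their side of the threshold, 2 lost a call, 1 gained one and 1 turned round. Among values without one library, 314 kept both, 6 lost a call, 1 gained one and 3 turned round. The number of the 10 genes higher in HaCaT_sh+cyto than in HaCaT_ctrl+cyto was 2, and was 1 with library size alone, 1 with the replicate block, and 1 to 2 when single libraries were left out. PTGES2 in HaCaT_ctrl+cyto against HaCaT_ctrl turned to -0.032 with library size alone. HPGD in HaCaT_sh+cyto against HaCaT_ctrl+cyto ranged between -0.14 and 0.072 without single libraries, and turned to 0.072 without HaCaT_sh+cyto replicate 3, 0.023 without HaCaT_ctrl+cyto replicate 1 and 0.037 without HaCaT_ctrl+cyto replicate 2. The cause was not tested.

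Library size alone moved the median of all genes with cytokines to -0.23 in HaCaT_sh and -0.24 in HaCaT_ctrl. It gave 1501 genes higher and 3419 lower in HaCaT_sh+cyto against HaCaT_sh (2013 and 2827 with TMM), and 1504 higher and 3495 lower in HaCaT_ctrl+cyto against HaCaT_ctrl (2017 and 2890 with TMM). Without the filter on low counts, 549 genes were higher and 391 lower in HaCaT_sh+cyto against HaCaT_ctrl+cyto (317 and 207 with it), and 284 and 282 in the interaction (186 and 163 with it). Leaving out HaCaT_ctrl+cyto replicate 2 gave 196 higher and 122 lower, and leaving out HaCaT_sh+cyto replicate 1 gave 131 lower, in HaCaT_sh+cyto against HaCaT_ctrl+cyto.

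Same-numbered replicates did not pair: 3 of 18 pairs correlated above 0.1 in their deviations from group means (range -0.14 to 0.20). The replicate block ended the PTGER4 call between the cytokine-treated lines (log2 fold change 1.69, adjusted p = 0.0128, edgeR) and the AKR1C3 call there, and changed no other call named. IQGAP3 in HaCaT_sh+cyto against HaCaT_ctrl+cyto passed the threshold with DESeq2 (-1.43), with no filter (-1.44), in the fit of all 12 libraries (-1.45) and without HaCaT_ctrl+cyto replicate 1 (-1.72). MGLL's interaction lost its call with limma-voom (-1.65) and without HaCaT_sh replicate 1 or 3 or HaCaT_ctrl replicate 2 or 3 (adjusted p of 0.0102 to 0.0137, edgeR). Depth limits PTGS1, PTGER2 and PTGER4, which had under 20 counts in at least 1 library.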
